A study of Mus musculus with 14 samples.

Results

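The 9 genes described here encode the smooth muscle contractile apparatus that myoepithelial cells of the mammary gland share with smooth muscle: the actins Acta2, Actg2 and Acta1, the heavy chain Myh11, the regulatory light chain Myl9, the light chain kinase Mylk, the calponin Cnn1, transgelin (Tagln) and the tropomyosin Tpm2. They were chosen by symbol, as every array probe whose platform annotation names 1 of them. This gave 21 of 45281 probes on the array, of which 17 were detected often enough to be tested, and each of the 9 genes had at least 1 tested probe among the 11350 genes tested. The remaining 4 probes, 1 each for Acta2, Myh11, Mylk and Tagln, were detected on no array. Unless another probe is named, a gene is given by its brightest tested probe.

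RNA came from female FVB/NJ mice, either virgin or at day 12.5 of pregnancy, pooled before sorting into 3 virgin and 4 pregnant pools. After cells bearing CD45, CD31 or TER119 had been set aside, 2 populations of each state were sorted by CD24 and CD29: CD24+ cells high in CD29, which the labels call MaSC-enriched (MaSC stands for mammary stem cell), and CD24+ cells low in CD29, called luminal. The 14 single-colour Illumina arrays thus form 4 groups: virgin MaSC-enriched (3), pregnant MaSC-enriched (4), virgin luminal (3) and pregnant luminal (4). The labels describe no genetic modification in any group. They give sort purity as above 90%, so a minority of other cells in either population is compatible with the labels, and each array reports a pool of mice rather than 1 animal.

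Myoepithelial cells form the contractile basal layer around mammary ducts and alveoli, and they squeeze milk towards the nipple when oxytocin from the pituitary reaches them. Contraction begins with a rise in cell calcium, which through calmodulin activates the kinase encoded by Mylk. That kinase phosphorylates the light chain encoded by Myl9, and Myh11 myosin then pulls on filaments of Acta2 and Actg2, with tropomyosin, calponin and transgelin bound along the actin. Many genes of this program are known targets of the serum response factor SRF and its coactivator myocardin, which act at a short DNA element called the CArG box.

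Promoter sequence could be matched for 6 of the 9 genes (Acta2, Acta1, Myl9, Mylk, Cnn1 and Tpm2) in a RefSeq table on mouse build GRCm38.p6, and Actg2, Myh11 and Tagln had no entry in it. The 3 windows that held a CArG box are shown because the element is the textbook feature of this gene family, and because they set Acta1, whose values followed another course, beside Acta2 and Myl9. Each window holds the 250 bases before the annotated start, 5′ to 3′ on the gene's strand, with CArG boxes in capitals. The Acta2 window is chr19:34255374-34255623 on the minus strand, the Acta1 window chr8:123894776-123895025 on the minus strand and the Myl9 window chr2:156775214-156775463 on the plus strand.
Acta2: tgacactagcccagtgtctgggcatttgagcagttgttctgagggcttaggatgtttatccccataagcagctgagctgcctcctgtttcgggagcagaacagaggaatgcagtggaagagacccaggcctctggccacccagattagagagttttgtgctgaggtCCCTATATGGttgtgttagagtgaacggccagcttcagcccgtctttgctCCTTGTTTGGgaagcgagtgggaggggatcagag
Acta1: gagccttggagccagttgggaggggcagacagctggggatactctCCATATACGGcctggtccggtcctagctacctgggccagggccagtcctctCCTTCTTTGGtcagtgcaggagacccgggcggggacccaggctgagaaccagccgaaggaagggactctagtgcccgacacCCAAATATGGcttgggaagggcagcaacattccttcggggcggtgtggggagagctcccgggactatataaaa
Myl9: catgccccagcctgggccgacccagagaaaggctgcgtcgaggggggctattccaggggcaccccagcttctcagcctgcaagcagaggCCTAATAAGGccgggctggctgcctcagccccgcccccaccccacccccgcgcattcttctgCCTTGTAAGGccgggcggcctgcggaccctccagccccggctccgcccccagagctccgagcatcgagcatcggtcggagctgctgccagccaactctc

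The strict form of the CArG box (CC, 6 bases each A or T, then GG, which reads alike in form on both strands) was present in the Acta1 window, 73 bases before the start, and in the Myl9 window, 161 bases before it. A relaxed form with 1 deviating base, added after the strict search had been seen, was present at 84 and 34 bases before the start of Acta2, at 205 and 154 bases before that of Acta1 and at 99 bases before that of Myl9. Neither form was present in these letters for Mylk, Cnn1 or Tpm2. The strict form stood in 2 of the 6 windows (33.3%) and in 482 of all 32851 windows of the table (1.47%). Either form stood in 3 of the 6 (50%) and in 2823 of all windows (8.59%). A match is a stretch of letters and no measure of binding, and the arrays carry no information on binding.

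On each array 34.8% to 42.3% of probes were detected, and after normalization the top of the log2 intensity scale lay at 14.96 on every array. Within groups the arrays correlated with Pearson coefficients of 0.908 to 0.941 in virgin MaSC-enriched cells, 0.949 to 0.976 in virgin luminal, 0.965 to 0.990 in pregnant luminal and 0.977 to 0.988 in pregnant MaSC-enriched cells. The arrays were spread over 4 chips, with virgin MaSC-enriched replicate 2 alone on chip 2. The sort labels were checked with lists of basal and luminal markers, which did not include CD29. Of 9 basal markers 8 were higher in virgin MaSC-enriched than virgin luminal cells, and of 10 tested luminal markers 9 were lower. Among the latter was the keratin Krt18, at 10.9 to 12.2 against 14.1 to 14.7. In pregnant glands 7 of the 9 basal markers were higher in MaSC-enriched than luminal cells, and 8 of the 10 luminal markers were lower. The basal marker Itgb4 went against the labels there, with pregnant luminal arrays at 206% to 255% of the MaSC-enriched mean. One luminal library stood apart for the genes described here: virgin luminal replicate 1 gave values near those of pregnant luminal cells for 7 of the 9, so results that rest on it are also given without it. The p-values below measure the spread between pools of mice, taken for each probe as 1 value shared by all 4 groups. The spread among luminal arrays thus enters the tests in MaSC-enriched cells too. For Acta2 the SD was 0.08 and 0.05 in virgin and pregnant MaSC-enriched cells, but 1.38 and 0.22 in luminal cells. The fit treated the 14 arrays as independent. The labels do not say which arrays of the 2 populations shared a pool.

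The first comparison asked which of the contractile genes separated the MaSC-enriched from the luminal population in virgin glands. In virgin glands 8 of the 9 contractile genes were higher in MaSC-enriched than in luminal cells, most of them by more than an order of magnitude, and Acta1 was lower. The smooth muscle actin Actg2, the myosin Myh11, its light chain Myl9 and the actin-binding Tagln showed the widest separation, and the 8 genes were also non-overlapping between all arrays of the 2 populations. These counts stand against 15.5% of all tested genes called higher and 16.5% called lower in the same comparison. By non-overlap alone, 17.8% of all tested genes were higher and 19.8% lower. The median difference over the 9 genes was 5.61 on the log2 scale, beside -0.04 over all tested genes.

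Actg2, the enteric gamma actin of smooth muscle, had log2 intensities of 13.85, 13.25 and 13.46 in virgin MaSC-enriched replicates 1 to 3 and of 8.76, 5.63 and 5.50 in virgin luminal replicates 1 to 3. All 3 MaSC-enriched arrays lay far above all luminal arrays, and only luminal replicate 1 was above background for this probe. The difference was 6.89 (SE 0.588), a 118-fold higher intensity, with a limma adjusted p of 3.67e-07. Myh11, the smooth muscle myosin heavy chain that serves as the motor, read 14.21, 14.15 and 13.80 in virgin MaSC-enriched cells and 9.0, 6.76 and 6.65 in virgin luminal cells. Again no luminal array approached the MaSC-enriched range, and luminal replicate 1 was the highest of its group. The Myh11 difference was 6.59 (SE 0.446, 96.1-fold, limma adjusted p 3.81e-08).

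Myl9, the regulatory light chain on that motor, read 14.40, 14.13 and 13.59 in virgin MaSC-enriched cells against 9.04, 6.97 and 6.69 in virgin luminal cells, a difference of 6.47 (SE 0.447, 88.9-fold, limma adjusted p 4.55e-08). Mylk, the kinase acting on the light chain, read 14.60, 14.68 and 14.12 against 10.84, 8.07 and 8.38, a difference of 5.37 (SE 0.530, 41.3-fold, limma adjusted p 1.59e-06). For both genes the groups did not overlap and luminal replicate 1 stood above its group mates. The other 2 Mylk probes gave differences of 6.31 and 6.04.

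Among the proteins bound along the actin filament, Tagln read 11.95, 11.50 and 11.63 in virgin MaSC-enriched cells against 6.24, 5.17 and 4.87 in virgin luminal cells, a difference of 6.26 (SE 0.291, 76.8-fold, limma adjusted p 2.36e-09). Tagln was above background on 1 of the 3 virgin luminal arrays, so this fold is partly against background. Tpm2, a tropomyosin that governs access of myosin to actin, read 14.09, 14.07 and 14.05 against 9.84, 7.87 and 7.65, a difference of 5.61 (SE 0.432, 49.0-fold, limma adjusted p 1.3e-07). Both genes separated the populations on every array. Cnn1, a calponin that restrains actomyosin, was detected on all 7 MaSC-enriched arrays and on no luminal array. Its MaSC-enriched values of 7.68, 7.31 and 7.22 were therefore at least 3.34-fold above luminal cells, a lower bound set by the lowest signal still detected there (limma adjusted p 8.35e-07). The 2 other Tpm2 probes were dim: 1 was at least 2.89-fold higher (limma adjusted p 0.0265) and the other differed by 0.62 (limma adjusted p 0.204).

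Acta2, the alpha smooth muscle actin used as the standard myoepithelial marker, read 14.41, 14.39 and 14.53 in virgin MaSC-enriched cells. Its brightest probe read 13.75, 11.41 and 11.30 in virgin luminal cells, so the luminal range was wide but lay wholly below. The difference by this probe was 2.29 (SE 0.454, 4.90-fold, limma adjusted p 0.00126). The other 3 bright Acta2 probes gave 5.35, 5.29 and 5.22, or 40.9-fold, 39.2-fold and 37.3-fold, and they read 7.81 to 11.03 in virgin luminal cells and 13.51 to 14.66 in virgin MaSC-enriched cells. Probes for Acta2 therefore differed in how large a separation they reported and not in its direction. A further, dim probe was detected on the 7 MaSC-enriched arrays alone and gave at least 3.95-fold.

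Acta1, the alpha actin of skeletal muscle and the only member best known outside smooth muscle, went the other way. It read 6.34, 7.44 and 5.18 in virgin MaSC-enriched cells and 9.17, 9.76 and 7.67 in virgin luminal cells. The luminal arrays were all above the MaSC-enriched arrays, the nearest pair being 7.67 and 7.44. The difference was -2.55 (SE 0.648), a 5.85-fold lower intensity in MaSC-enriched cells, with a limma adjusted p of 0.00774. Within single chips the median difference over the 9 genes was 4.25 on chip 1 and 6.39 on chip 4, with 1 array of each population on each, and without virgin luminal replicate 1 it was 6.31. In bulk RNA, fewer cells of a type and less RNA per cell cannot be told apart, here and in each comparison that follows.

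**Figure D1:**
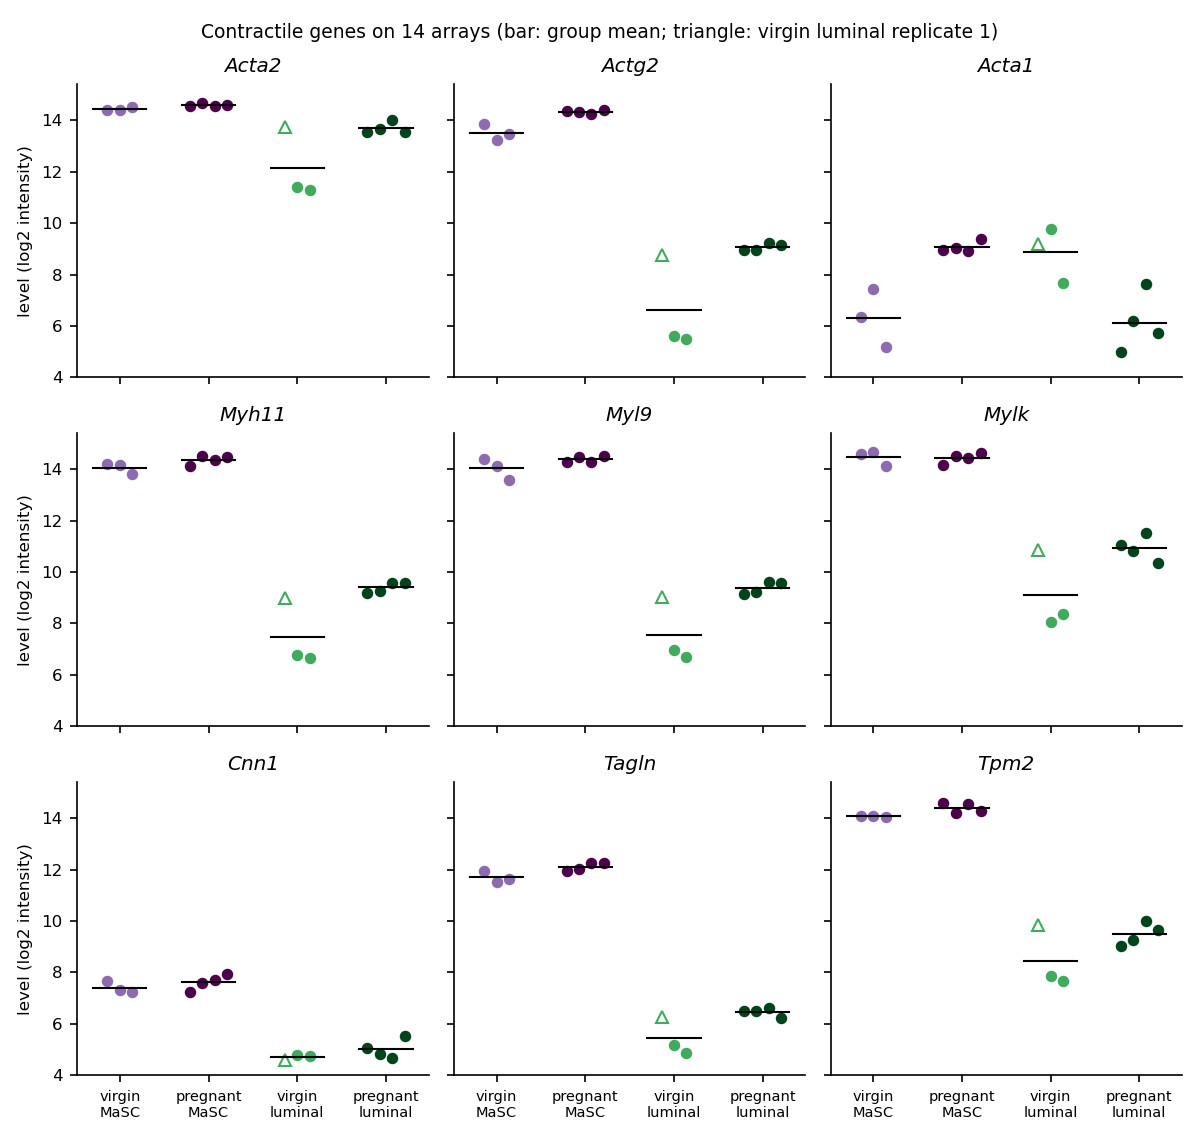
Log2 intensity of each of the 9 contractile genes (brightest tested probe) on each of the 14 arrays, with 1 point per array in 4 groups and the group mean as a bar. Except for Acta1, the MaSC-enriched arrays lie above the luminal arrays of the same state, and virgin luminal replicate 1 lies with the pregnant luminal arrays for most genes.

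The same comparison in pregnancy asked whether the separation of the populations was also present at day 12.5. In pregnant glands 8 of the 9 genes were higher in MaSC-enriched than in luminal cells, Acta1 now among them, and Acta2 by its brightest probe missed the threshold. All 9 genes were non-overlapping, with every pregnant MaSC-enriched array above every pregnant luminal array. Across all tested genes 20.1% were called higher and 23% lower, and 22.5% were higher and 27.5% lower by non-overlap. The median difference over the 9 genes was 4.91 on the log2 scale, beside -0.10 over all tested genes.

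Actg2 read 14.38, 14.32, 14.27 and 14.42 in pregnant MaSC-enriched replicates 1 to 4 and 8.95, 8.94, 9.21 and 9.15 in pregnant luminal replicates 1 to 4. Both groups were tight, and the gap between them was many times the spread within either. The difference was 5.28 (SE 0.510, 39.0-fold, limma adjusted p 8.99e-07). Myh11 read 14.13, 14.52, 14.34 and 14.47 against 9.20, 9.25, 9.56 and 9.59, a difference of 4.97 (SE 0.386, 31.3-fold, limma adjusted p 9.71e-08). Myl9 read 14.28, 14.48, 14.30 and 14.51 against 9.15, 9.24, 9.62 and 9.56, a difference of 5.0 (SE 0.387, 31.9-fold, limma adjusted p 9.56e-08). Motor and light chain thus showed separations of like size, as they had in virgin glands.

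Mylk read 14.18, 14.50, 14.44 and 14.62 in pregnant MaSC-enriched cells against 11.06, 10.84, 11.53 and 10.35 in pregnant luminal cells, a difference of 3.49 (SE 0.459, 11.2-fold, limma adjusted p 2.19e-05). Tagln read 11.94, 12.02, 12.25 and 12.24 against 6.50, 6.50, 6.60 and 6.20, a difference of 5.66 (SE 0.252, 50.7-fold, limma adjusted p 5.04e-10). Tpm2 read 14.57, 14.19, 14.54 and 14.28 against 9.03, 9.27, 9.99 and 9.64, a difference of 4.91 (SE 0.374, 30.2-fold, limma adjusted p 7.95e-08). For all 3 the populations stayed well apart on every array. Cnn1, at 7.24, 7.56, 7.70 and 7.93 in pregnant MaSC-enriched cells, was at least 3.35-fold above the luminal cells, where it was not detected (limma adjusted p 2.01e-07).

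Acta2 by its brightest probe read 14.58, 14.67, 14.56 and 14.60 in pregnant MaSC-enriched cells and 13.55, 13.65, 14.02 and 13.57 in pregnant luminal cells. The groups did not overlap, but the fit, in which all 4 groups share one spread, gave 0.91 (SE 0.393, 1.87-fold, 95% interval 0.07 to 1.75) with a limma adjusted p of 0.0813. With virgin luminal replicate 1 left out, the limma adjusted p was 0.000562. The other 3 bright probes passed, at 3.16, 3.29 and 3.89, or 8.94-fold, 9.81-fold and 14.8-fold, and the dim probe gave at least 8.28-fold. Acta1 read 8.96, 9.04, 8.91 and 9.37 in pregnant MaSC-enriched cells against 5.0, 6.18, 7.62 and 5.73 in pregnant luminal cells, a difference of 2.94 (SE 0.561, 7.67-fold, limma adjusted p 0.000664). Within chips 3 and 4 the median difference over the 9 genes was 4.44 and 4.65.

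The second question was what pregnancy did to these genes in each population. In luminal cells 6 of the 9 genes rose between the virgin state and day 12.5: Acta2, Actg2, Myh11, Myl9, Mylk and Tagln, by 2.03-fold to 5.39-fold. Acta1 fell 6.67-fold, and Tpm2 and Cnn1 did not pass the test. Across all tested genes 10.9% rose and 10.7% fell. The median difference over the 9 genes was 1.54, beside 0.05 over all tested genes. The size of the rise turned on virgin luminal replicate 1, described with each gene below.

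Actg2 in luminal cells went from 8.76, 5.63 and 5.50 in virgin to 8.94 to 9.21 in pregnant arrays, and all 4 pregnant arrays lay above all virgin arrays. It rose by 2.43 (SE 0.550, 5.39-fold, limma adjusted p 0.00539), and by 3.50 without virgin luminal replicate 1. That replicate was the only virgin luminal array above background for Actg2, so the rise is partly, and without it wholly, measured from background. Myh11 went from 9.0, 6.76 and 6.65 to between 9.20 and 9.59, a rise of 1.93 (SE 0.417, 3.81-fold, limma adjusted p 0.00389). Myl9 went from 9.04, 6.97 and 6.69 to between 9.15 and 9.62, a rise of 1.83 (SE 0.419, 3.55-fold, limma adjusted p 0.00582). For these 3 genes virgin luminal replicate 1 lay just under the pregnant range while its 2 group mates lay well below it. They were the 3 of 9 genes higher by non-overlap, beside 18.2% of all tested genes, and Acta1 was lower by non-overlap, beside 15.6%.

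For the other risen genes virgin luminal replicate 1 lay inside the pregnant range. Acta2 went from 13.75, 11.41 and 11.30 to between 13.55 and 14.02, a rise of 1.54 (SE 0.424, 2.92-fold, limma adjusted p 0.0184), and its other 3 bright probes rose by 2.09, 2.21 and 1.75. Mylk went from 10.84, 8.07 and 8.38 to between 10.35 and 11.53, a rise of 1.85 (SE 0.496, 3.60-fold, limma adjusted p 0.0162). Tagln went from 6.24, 5.17 and 4.87 to between 6.20 and 6.60, a rise of 1.02 (SE 0.272, 2.03-fold, limma adjusted p 0.0153). It was above background on 1 of the 3 virgin luminal arrays, so its rise is partly measured from background. The calls of Acta2, Mylk and Tagln were lost when virgin luminal replicate 2 or 3 was left out, and then 3 of the 9 genes rose.

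Tpm2 went from 9.84, 7.87 and 7.65 to between 9.03 and 9.99, a difference of 1.03 (SE 0.404, limma adjusted p 0.0936). Cnn1 was below background on all luminal arrays, so it has no measured change there. Without virgin luminal replicate 1, 7 genes rose (the 6 above and Tpm2, by 1.72 with a limma adjusted p of 0.000502), Acta1 still fell, and the median was 2.34; 7.44% of all tested genes then rose and 8.1% fell. Within chip 1, which holds that replicate and 2 pregnant luminal arrays, the median difference was 0.16, with Acta2 at -0.14, Actg2 at 0.18 and Tpm2 at -0.69. Within chips 3 and 4 it was 2.60 and 1.98. With chip as a block in the fit, 6 genes rose and 1 fell, as without it. With array weights, which gave virgin luminal replicate 1 a weight of 5.87 and its group mates 0.624 and 0.468, 1 of the 9 genes passed limma's test, Acta1, which fell, and the median was 0.44.

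**Figure D2:**
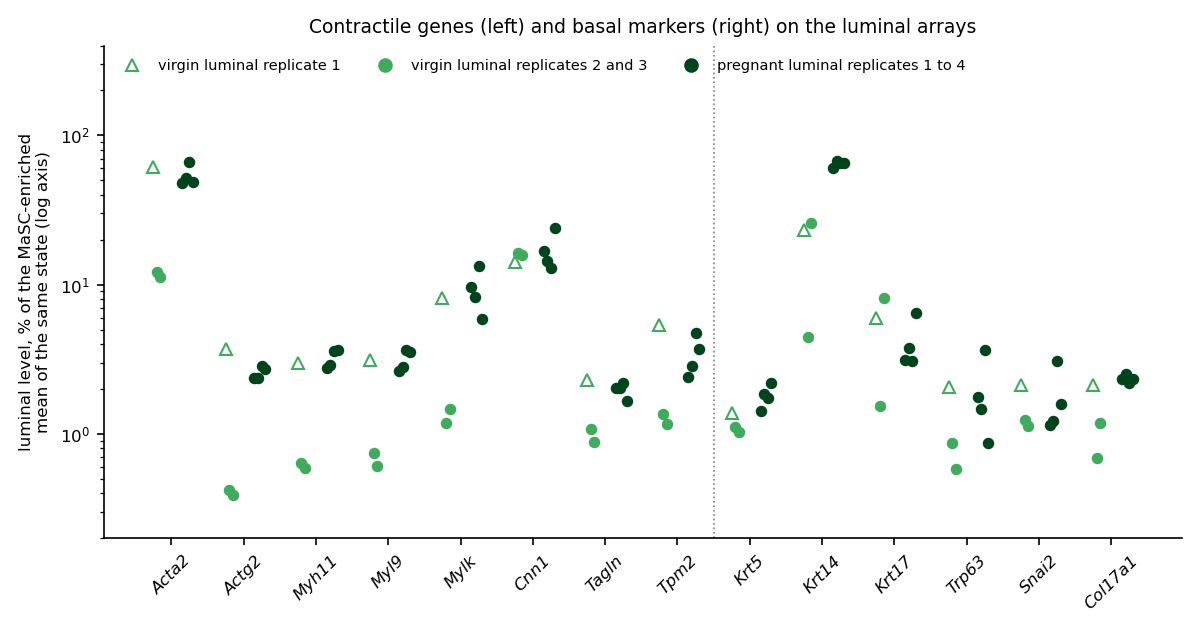
Luminal intensity of the contractile genes and of basal markers on each of the 7 luminal arrays, as a percentage (log axis) of the mean in MaSC-enriched cells of the same state for the same probe. Acta1 and the basal markers Itga6, Itgb4 and Lgr5 are not drawn. For Actg2, virgin luminal replicates 2 and 3 lie at 0.422% and 0.387%, and replicate 1 at 3.69% lies near the pregnant arrays at 2.36% to 2.85%.

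Expressed as a share of the MaSC-enriched mean of the same state, the luminal signal of Actg2, Myh11, Myl9, Tagln and Tpm2 was a few percent or less. Actg2 in virgin luminal replicates 1 to 3 was at 3.69%, 0.422% and 0.387% and in pregnant luminal cells at 2.36% to 2.85%, its 2 lowest shares being of signal not above background. Myh11 was at 3.00%, 0.638% and 0.590% and then at 2.78% to 3.64%, and Myl9 at 3.13%, 0.742% and 0.613% and then at 2.65% to 3.66%. The motor, its light chain and Actg2 thus stood at alike shares of 2% to 4% in pregnant luminal cells and in virgin luminal replicate 1, and at under 1% in the other two. Tagln was at 2.29%, 1.09% and 0.886% and then at 1.66% to 2.19%, and Mylk at 8.12%, 1.19% and 1.47% and then at 5.91% to 13.3%. Acta2 by its brightest probe was at 61.6%, 12.2% and 11.3% and then at 48.3% to 66.6%, whereas a second Acta2 probe was at 8.83%, 1.22% and 1.36% and then at 9.79% to 14.3%. Several of these probes lie near the top of the intensity scale in MaSC-enriched cells, and whether that raises the shares was not tested.

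Markers of basal cells were read beside these values, since MaSC-enriched cells carry both. Of the 9 basal markers 1 rose in luminal cells with pregnancy, a share near the 10.9% of all tested genes that rose. It was the keratin Krt14, by 2.31 (SE 0.432, limma adjusted p 0.0014), from 12.17, 9.78 and 12.32 to between 13.65 and 13.79. When virgin luminal replicate 1 was left out, 3 of the 9 rose, beside 7.44% of all tested genes. The summed intensity of the 9 markers ranged from 6324 to 13546 in virgin luminal, 18068 to 20052 in pregnant luminal, 73221 to 93801 in virgin MaSC-enriched and 71157 to 80502 in pregnant MaSC-enriched arrays. Krt14 made most of the sum on pregnant luminal arrays, so the sum there does not describe the markers as a set. The basal keratin Krt5 was not above background on any luminal array, so its shares of 1.03% to 2.20% of the MaSC-enriched mean are of background signal. Trp63, a basal transcription factor, was at 2.07%, 0.868% and 0.583% and then at 0.869% to 3.65%. Snai2, another basal transcription factor, was at 2.12%, 1.24% and 1.13% and then at 1.15% to 3.08%, and the hemidesmosome collagen Col17a1 at 2.14%, 0.691% and 1.19% and then at 2.19% to 2.51%. Krt14 was at 23.4%, 4.45% and 25.9% and then at 60.9% to 67.1%. Virgin luminal replicate 1 was the highest of its group for Trp63, Snai2 and Col17a1, and for Krt5 on background signal. Replicate 3 was highest for Krt14, Krt17, Itga6 and Itgb4, and replicate 2 for Lgr5. The basal markers as a set therefore did not single out replicate 1. Of 8 fibroblast markers 1 rose in luminal cells with pregnancy, the collagen Col1a1, by 1.49 (limma adjusted p 0.0373), and 1, Dcn, fell. Among all tested genes 10.9% rose and 10.7% fell. The summed intensity of the fibroblast markers was 12511 to 31020 on virgin and 3243 to 13684 on pregnant luminal arrays. What part basal or stromal cells in the luminal sort had in the contractile values was not tested.

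In MaSC-enriched cells Acta1 was the 1 gene of 9 that passed the test with pregnancy, rising 6.73-fold, and a dim probe of Acta2 rose 2.40-fold. By their brightest probes the other 8 genes differed by between -0.03 and 0.83 on the log2 scale. Of these, Acta2, Actg2, Myh11, Myl9, Mylk and Tpm2 lay near the top of the scale, so their small differences do not show that their levels were alike. Across all tested genes 2.78% rose and 2.29% fell. The median difference over the 9 genes was 0.33, beside 0.03 over all tested genes. By non-overlap 4 of the 9 were higher in pregnancy (Acta2, Actg2, Acta1 and Tpm2), beside 9.45% of all tested genes.

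Actg2 in MaSC-enriched cells averaged 13.52 ± 0.30 (SD, n = 3) in virgin and 14.35 ± 0.07 (SD, n = 4) in pregnant glands. The 4 pregnant arrays were all above the 3 virgin arrays. The difference of 0.83 (SE 0.550) had a limma adjusted p of 0.456, and of 0.026 when virgin luminal replicate 1 was left out. Myh11 averaged 14.06 ± 0.22 and 14.37 ± 0.17, Myl9 14.04 ± 0.42 and 14.39 ± 0.12, and Mylk 14.47 ± 0.30 and 14.44 ± 0.19, with overlapping arrays and limma adjusted p-values of 0.747, 0.709 and 0.984. Tagln averaged 11.69 ± 0.23 and 12.11 ± 0.16, Cnn1 7.40 ± 0.24 and 7.61 ± 0.29, and Tpm2 14.07 ± 0.02 and 14.40 ± 0.19, with limma adjusted p-values of 0.440, 0.696 and 0.722. Virgin MaSC-enriched replicate 3 gave the lowest virgin value for Myh11, Myl9, Mylk and Cnn1.

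Acta2 averaged 14.45 ± 0.08 in virgin and 14.60 ± 0.05 in pregnant MaSC-enriched cells (limma adjusted p 0.887). Its brightest probe therefore lay within 0.6 of the top of the scale on every MaSC-enriched array, which leaves little room for a rise. The dim Acta2 probe, far from that ceiling, read 8.19, 7.91 and 6.83 in virgin and 9.42, 8.57, 9.01 and 8.65 in pregnant MaSC-enriched cells. All pregnant arrays were above all virgin arrays by this probe. It rose by 1.27 (SE 0.296, 2.40-fold, limma adjusted p 0.0247). When virgin MaSC-enriched replicate 3 was left out, this rise was 0.86 and did not pass (limma adjusted p 0.0765). The bright and dim probes of the same gene thus gave different answers in this comparison, and the probes of Actg2, Myh11, Myl9, Mylk and Tpm2 also lie near the top of the scale there.

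**Figure D3:**
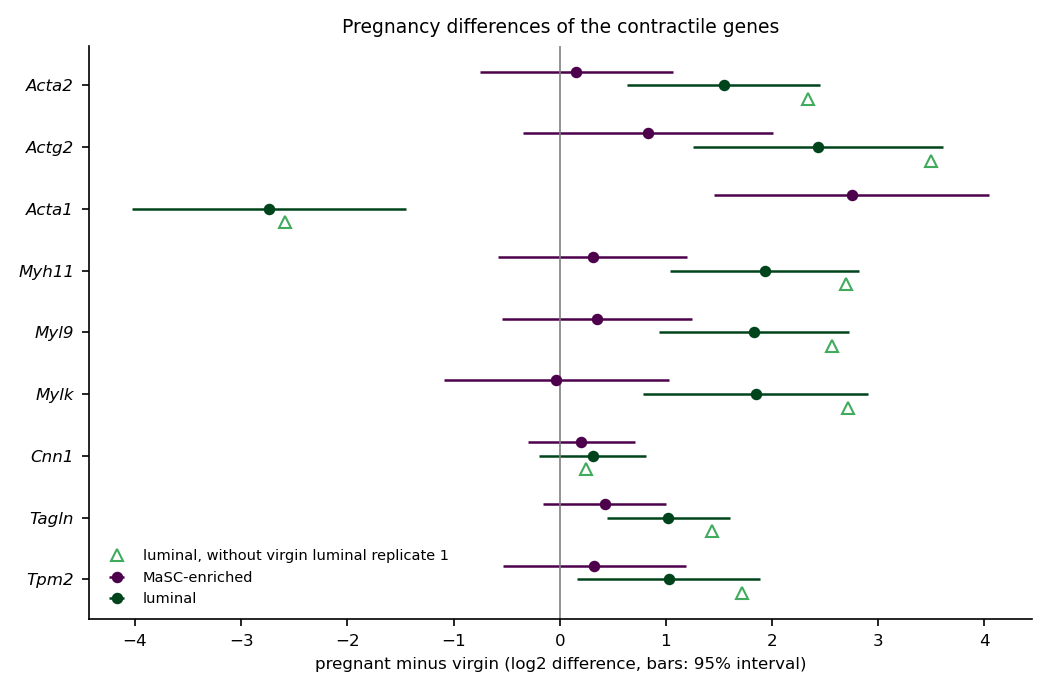
Difference between pregnant and virgin glands in log2 intensity for the 9 genes, in MaSC-enriched and in luminal cells, with 95% intervals from limma. The 2 populations sit on opposite sides of 0 for Acta1, at 2.75 in MaSC-enriched and -2.74 in luminal cells, and the intervals of the other genes in MaSC-enriched cells reach 0.

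Acta1 was the gene whose course differed between the populations. In MaSC-enriched cells it read 6.34, 7.44 and 5.18 in virgin and 8.96, 9.04, 8.91 and 9.37 in pregnant glands, with all pregnant arrays above all virgin ones. It rose by 2.75 (SE 0.606, 95% interval 1.46 to 4.04, limma adjusted p 0.0182). In luminal cells it read 9.17, 9.76 and 7.67 in virgin and 5.0, 6.18, 7.62 and 5.73 in pregnant glands, where the highest pregnant array almost met the lowest virgin one. It fell by 2.74 there (SE 0.606, 6.67-fold, limma adjusted p 0.00461). Detection followed the same split: it was above background on 2 of 3 virgin and 4 of 4 pregnant MaSC-enriched arrays, and on 3 of 3 virgin and 2 of 4 pregnant luminal arrays.

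The rise of Acta1 in MaSC-enriched cells rested on few arrays. It was 2.18 (limma adjusted p 0.0712) when virgin MaSC-enriched replicate 3 was left out, and 2.65 (limma adjusted p 0.0524) when pregnant MaSC-enriched replicate 4 was. Within chip 4, with 1 array of each group, it was 4.19. The fall in luminal cells was -3.59 within chip 1, -2.15 within chip 3 and -1.94 within chip 4, and its limma adjusted p was 0.026 without virgin luminal replicate 1.

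Skeletal muscle genes were read beside Acta1, because Acta1 is a skeletal muscle actin and mammary tissue lies next to muscle. Of 17 listed, 12 had a tested probe, and Myh1, Myh2, Myh4, Ckm and Neb had none. In luminal cells 5 of the 12 fell with pregnancy, as Acta1 did, and 1 rose, beside 10.7% and 10.9% of all tested genes. The 5 were the light chain Myl1 (-2.53), the troponins Tnni2 (-1.77) and Tnnc2 (-2.05), the calcium buffer Pvalb (-2.12) and the calcium pump Atp2a1 (-1.35), and myoglobin, Mb, rose by 1.01. Without virgin luminal replicate 1, 4 of the 12 fell, beside 8.1% of all tested genes. On the arrays Pvalb read 8.18, 8.18 and 6.32 and Myl1 9.27, 9.52 and 7.74 in virgin luminal cells, so virgin luminal replicate 3 was lowest, as it was for Acta1. In pregnant luminal cells replicate 3 was highest for Acta1 (7.62), Myl1 (7.81) and Pvalb (6.37). The summed intensity of the list in luminal cells ranged from 1170 to 2902 on virgin arrays and from 1334 to 1459 on pregnant arrays. Mb, at 9.19 to 9.82, was the brightest of the list on pregnant luminal arrays.

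In MaSC-enriched cells 1 of the 12 skeletal muscle genes rose with pregnancy, as Acta1 did: Mb, by 1.18 (limma adjusted p 0.023). None fell by limma's test, 1 of them being lower at an unadjusted p under 0.05. Among all tested genes 2.78% rose and 2.29% fell there. On the 4 pregnant MaSC-enriched arrays Acta1 read 8.91 to 9.37, Mb 9.22 to 9.87, Des 5.91 to 8.60 and Myl1 5.80 to 8.05. The other 9 skeletal genes, among them Pvalb, Tnnc2 and the fast muscle light chain Mylpf, read 4.65 to 6.51 on those arrays. On the virgin MaSC-enriched arrays, where Acta1 read 6.34, 7.44 and 5.18, Myl1 read 9.86, 9.22 and 6.54 and Des 10.83, 8.96 and 7.10. The part of muscle RNA in the Acta1 values was not tested. The summed intensity of the list was 886 to 3469 in virgin and 1328 to 1911 in pregnant MaSC-enriched arrays. No gene of a cardiac list of 6, the cardiac actin Actc1 among them, had a tested probe. The coding sequences of actins are alike, and binding of other actin transcripts to the Acta1 probe was not tested. Among pregnant luminal arrays, Acta1 read 5.0 on replicate 1, where Acta2 read 13.55 and Actg2 8.95, and 7.62 on replicate 3, where Acta2 read 14.02 and Actg2 9.21, the highest of the group for all 3 genes.

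**Figure D4:**
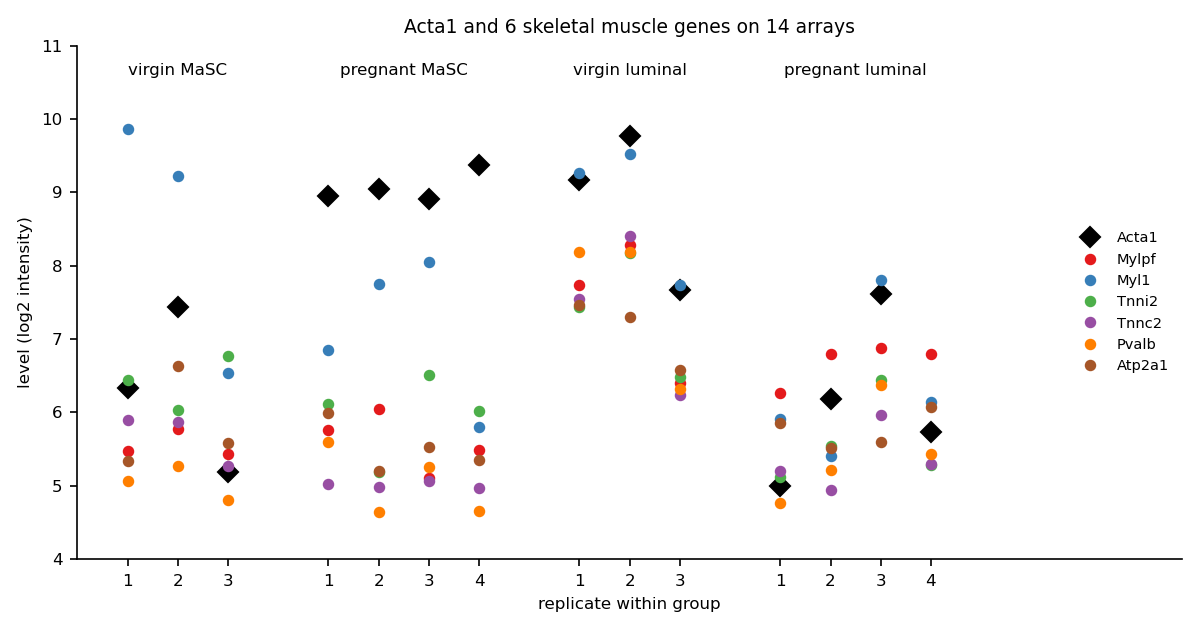
Log2 intensity of Acta1 on each of the 14 arrays beside the skeletal muscle genes Mylpf, Myl1, Tnni2, Tnnc2, Pvalb and Atp2a1. There is 1 point per array, with the groups side by side. Other tested skeletal genes, among them Des and Mb, which rose in luminal cells, are not drawn. In virgin luminal cells Acta1 is at 7.67 to 9.76 and Myl1 at 7.74 to 9.52. In virgin MaSC-enriched cells Acta1 is at 5.18 to 7.44 and Myl1 at 6.54 to 9.86. On the 4 pregnant MaSC-enriched arrays Acta1 is at 8.91 to 9.37, Myl1 at 5.80 to 8.05 and Tnnc2 at 4.97 to 5.06.

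The difference between the 2 populations in their change with pregnancy, taken as MaSC-enriched minus luminal, passed the test for 1 of the 9 genes. Acta1 differed by 5.49 (SE 0.857, limma adjusted p 0.00105). Across all tested genes 5.26% differed in the positive and 3.36% in the negative direction. The other 8 genes were negative, from -1.88 for Mylk to -0.11 for Cnn1, with Myh11 at -1.62 (limma adjusted p 0.119), Actg2 at -1.60 (limma adjusted p 0.256), Myl9 at -1.48 (limma adjusted p 0.159) and Acta2 at -1.39 (limma adjusted p 0.196). The median was -1.39. Without virgin luminal replicate 1, 6 of them passed: Acta2 (-2.18, limma adjusted p 0.000311), Actg2 (-2.67), Myh11 (-2.38), Myl9 (-2.22), Mylk (-2.75) and Tpm2 (-1.39, limma adjusted p 0.0327), against 2.11% of all tested genes in that direction. For Actg2 the virgin luminal arrays then left were not above background. The 6 genes that passed are the ones whose brightest probes lie near the top of the scale in MaSC-enriched cells. The dim Acta2 probe, which is not near it there and is below background in luminal cells, gave an interaction of 1.33 (limma adjusted p 0.0685), opposite in sign to the brightest probe. The arrays therefore do not settle whether these genes changed more in luminal than in MaSC-enriched cells.

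The order of the groups was shared by most members. For Actg2, Myh11, Myl9, Tagln, Tpm2 and Acta2 the means ran from pregnant MaSC-enriched through virgin MaSC-enriched and pregnant luminal to virgin luminal cells. The neighbours pregnant and virgin MaSC-enriched did not pass the test for any of these 6 by the brightest probe, and pregnant and virgin luminal cells did not for Tpm2. Mylk exchanged only the first pair, at 14.44 and 14.47. For Acta1 the order was pregnant MaSC-enriched (9.07 ± 0.21), virgin luminal (8.87 ± 1.08), virgin MaSC-enriched (6.32 ± 1.13) and pregnant luminal (6.13 ± 1.10), in which the first pair and the last pair each differed by less than 1 SD of their arrays.

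Other genes that act on the same machinery were read as lists by role. In the agonist list, which runs from hormone receptors to calcium channels, 10 of 15 genes had a tested probe and the oxytocin receptor Oxtr had none. In MaSC-enriched cells Kcnmb1, the beta subunit of the calcium-activated potassium channel, rose with pregnancy by 1.80 (limma adjusted p 0.000202), from 9.54, 9.18 and 8.67 to between 10.74 and 11.04. The calcium release channel Itpr3 fell by 1.05 there (limma adjusted p 0.0273) and by 0.80 in luminal cells. In virgin glands 5 of the 10 were higher in MaSC-enriched cells and 2 lower, beside 15.5% and 16.5% of all tested genes.

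For the genes that set light chain phosphorylation, 13 of 18 listed symbols had a tested probe. None passed limma's test with pregnancy in MaSC-enriched cells, although 4 were higher at an unadjusted p under 0.05. Ppp1r14a, which encodes the smooth muscle inhibitor of myosin phosphatase, was at least 11.5-fold higher in MaSC-enriched than luminal cells in virgin and at least 30.6-fold in pregnant glands, and its difference with pregnancy of 1.60 had a limma adjusted p of 0.0658. The myosin phosphatase subunit Ppp1r12a was higher in MaSC-enriched cells by 1.92 in virgin and 2.60 in pregnant glands.

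Of SRF and its coactivators and partners, 10 of 14 were tested, and 7 were higher in MaSC-enriched than luminal cells in each state with none lower. Mef2c, a muscle transcription factor, was higher by 3.80 and Csrp1 by 2.65 in virgin glands. Srf itself differed by 0.73 in virgin glands (limma adjusted p 0.0679) and was higher by 1.61 in pregnant glands. With pregnancy Csrp2 fell by 1.44 in MaSC-enriched cells (limma adjusted p 0.0105). In luminal cells Fhl2 fell by 1.77 and Fhl1 by 1.54, and neither passed without virgin luminal replicate 1.

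Of other contractile and anchoring genes 25 of 31 were tested, and 20 were higher in virgin and 22 in pregnant MaSC-enriched cells. The shares of all tested genes were 15.5% and 20.1%. Caldesmon, Cald1, was higher by 4.86 and the filament protein Synm by 4.43 in virgin glands. With pregnancy the adhesion protein Pgm5 rose by 1.81 in MaSC-enriched cells (limma adjusted p 0.0194). In luminal cells 1 of the 25 rose and 11 fell: Ldb3, a Z-line protein, rose by 2.94 (limma adjusted p 2.59e-06), while Hspb1 fell by 2.10, Cav1 by 1.96 and Cavin1 by 1.72. Caveolin Cav1 read 12.92, 12.92 and 12.33 in luminal cells of virgin glands, and 10.37 to 11.67 at day 12.5. Among all tested genes 10.9% rose and 10.7% fell in luminal cells. The count that fell was 7 of 25 without virgin luminal replicate 1, beside 8.1% of all tested genes.

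Non-muscle relatives of the 9 genes fell or did not pass the test in luminal cells. Of 13 listed 11 were tested, and there 6 fell and none rose with pregnancy, beside 10.7% and 10.9% of all tested genes. Tagln2, the widely expressed relative of Tagln, fell by 2.65, the non-muscle myosins Myh14 by 1.90 and Myh9 by 0.80, and the non-muscle light chain Myl12b by 0.83. The count was 3 of 11 without virgin luminal replicate 1, beside 8.1% of all tested genes. In virgin glands 4 of the 11 were higher in MaSC-enriched cells and 2 lower, beside 15.5% and 16.5% of all tested genes.

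**Figure D5:**
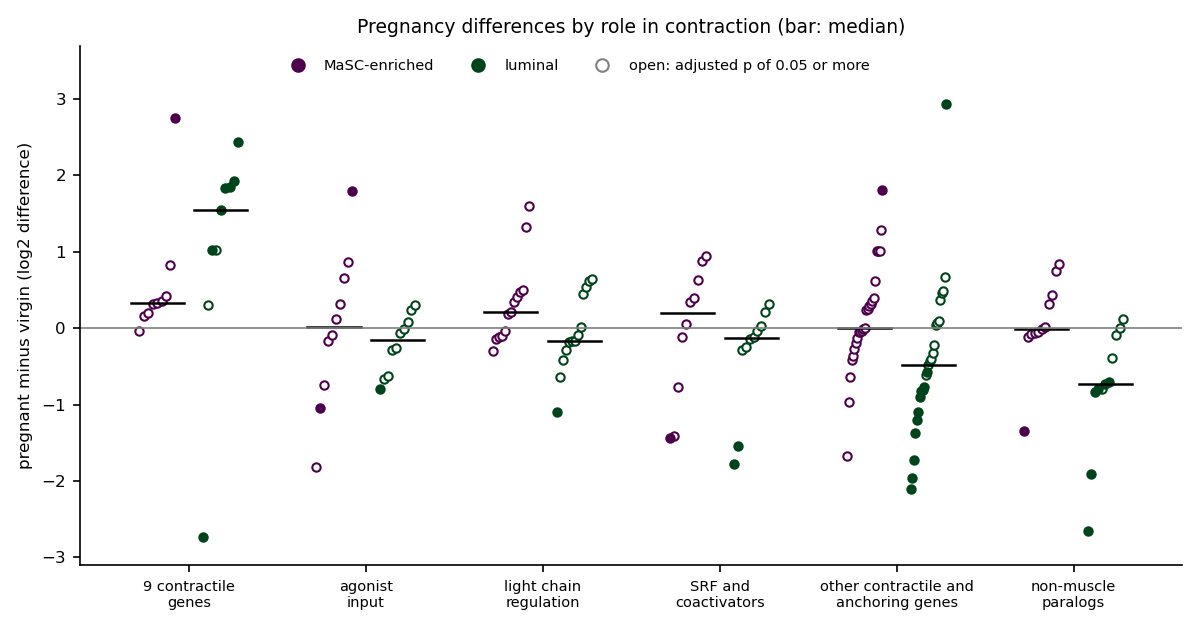
Difference between pregnant and virgin glands in log2 intensity, with 1 point per tested gene, in MaSC-enriched and in luminal cells. The 9 contractile genes and 5 lists of related genes stand side by side, with the median as a bar. Open points are genes with a limma adjusted p of 0.05 or more. In luminal cells 6 of the 9 contractile genes rose and 1 fell, while 11 of 25 other contractile and anchoring genes and 6 of 11 non-muscle relatives fell. Among all tested genes 10.9% rose and 10.7% fell there.

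Vascular smooth muscle and pericytes use the same contractile genes, so their markers were read in the MaSC-enriched arrays too. Of 9 pericyte markers 6 were higher in MaSC-enriched than luminal cells in virgin and 7 in pregnant glands. The shares of all tested genes were 15.5% and 20.1%. Their summed intensity on MaSC-enriched arrays ranged from 3968 to 13981 in virgin glands and 2071 to 9270 in pregnancy, and on luminal arrays from 2352 to 2741 and 1615 to 2082. The pericyte gene Rgs5 read 11.56, 10.44 and 9.59 in virgin and 10.05, 11.49, 10.75 and 9.18 in pregnant MaSC-enriched cells. With pregnancy 1 of the 9 fell in MaSC-enriched cells, Mcam, by 1.5 (limma adjusted p 0.0066), beside 2.29% of all tested genes. Of 4 tested endothelial markers none passed limma's test between virgin populations (2 were higher at an unadjusted p under 0.05). In pregnant glands all 4 were higher in MaSC-enriched than luminal cells, beside 20.1% of all tested genes. Their summed intensities there were 1159 to 4550 against 545 to 1135. The part of vascular cells in the contractile values was not tested.

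The genes whose course over the 14 arrays was most like the mean course of the 9 contractile genes were Col4a2, Arhgap24, Tpst1, Spon2, Sparc and Ckb. Likeness was measured as the root mean square log2 difference from the centred mean profile, out of 11050 genes compared, and these 6 had values of 0.35, 0.36, 0.41, 0.42, 0.45 and 0.46. Among the members, Mylk lay at 0.47 and Tpm2 at 0.57, Myl9 at 0.80 and Myh11 at 0.83. Tagln lay at 0.91, Cnn1 at 0.96, Actg2 at 1.09 and Acta2 at 1.36, and Acta1, at 2.45, was farthest from the mean of its own family. All of these points share the same 14 arrays and the 2 populations, which set most of the profile.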

How the data were processed

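RNA was hybridised to Illumina mouse arrays with a single Cy3 label, from up to 250 ng of RNA per array. The authors deposited probe intensity values and detection p-values that were not normalized, and a matrix of normalized log2 values. The submitters' processing notes name BeadStudio and limma. The intensities were corrected by normexp with the detection p-values (offset 16), quantile normalized and taken to log2 with limma 3.58.1 in R 4.3.3. The deposited log2 values match the same steps at an offset of 50. Probes with detection p below 0.05 on at least 3 of 14 arrays were tested, 20906 of 45281. Platform annotation gave 34885 probes 1 symbol, 18 several and 10378 none. All arrays entered 1 limma fit with a mean per group, moderated by eBayes, two-sided, with Benjamini-Hochberg adjustment over all tested probes and a threshold of 0.05. A probe undetected throughout a group gives only a bound there. All members are named, with up to 4 genes of each role list by largest difference. The members and lists were chosen with earlier results of these data known. The number of arrays limits the precision, and there is no sequencing depth. Alternatives covered background, scaling, filter, chip, replicate block, array weights, probe choice and left-out arrays.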

Additional observations from a re-analysis of the deposited data

Results flagged for a closer look

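Acta1 was singled out because its change with pregnancy differed between the populations by a test of the difference itself. It rose by 2.75 on the log2 scale in MaSC-enriched cells and fell by 2.74 in luminal cells, so the interaction was 5.49 (SE 0.857, limma adjusted p 0.00105). No array lay apart from its group by Dixon's test among the 18 sets of 4 arrays examined, and groups of 3, which include the virgin luminal arrays, cannot be examined that way.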

How the results depend on the processing

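Of 1125 values of single probes or genes in the alternative fits, 1083 kept their side of the threshold, 30 lost and 12 gained a call, and no called difference changed sign. Differences that did not pass did so: with 1 array left out, Mylk with pregnancy in MaSC-enriched cells ran from -0.21 to 0.07 and the Cnn1 interaction reached 0.07. Within chips, untested, luminal pregnancy differences of Acta2 (-0.14) and Tpm2 (-0.69) on chip 1 and of Cnn1 (-0.13) on chip 3 had the opposite sign. Counts of members called in MaSC-enriched cells with pregnancy fell from 1 to 0 with no filter on low probes, with array weights and with the replicate block. In luminal cells the count of 7 fell to 1 with array weights and to 0 with the replicate block. The differences themselves stayed close with the block (Actg2 2.40, Myh11 1.87, Mylk 2.04) and shrank with array weights (Actg2 0.74, Acta2 0.29). The labels do not tie same-numbered arrays to 1 pool. For pregnancy the block joined same-numbered virgin and pregnant arrays of 1 population, which are different mice, so it is no paired test. Their deviations correlated at -0.270, 0.039 and 0.077 in MaSC-enriched and 0.045, -0.248 and -0.281 in luminal cells, with none matching itself best. Between populations and for the interaction it joined same-numbered arrays of 1 state. Those deviations correlated at 0.047, 0.421 and 0.377 in virgin and -0.162, 0.005, -0.165 and 0.091 in pregnant pools. Each virgin number but no pregnant one matched itself best. Array weights gave virgin luminal replicate 1 a weight of 5.87 and replicates 2 and 3 weights of 0.624 and 0.468, and moved the median differences to 0.44 (pregnancy, luminal), 4.56 (virgin populations) and -0.13 (interaction). Without background correction the interaction median was -0.66, and with the mean of all probes the pregnant populations differed by a median of 4.25. Within chips the luminal pregnancy median was 0.16 (chip 1) and 2.60 (chip 3), and the virgin population median 4.25 (chip 1) and 6.39 (chip 4). Leaving out 1 array gave 0 to 2 members called with pregnancy in MaSC-enriched cells (medians 0.20 to 0.39), 4 to 8 in luminal cells (1.12 to 2.34), 9 to 9 between virgin populations (5.21 to 6.31), 8 to 9 between pregnant populations (4.76 to 5.02) and 1 to 7 for the interaction (-2.18 to -0.96). The causes were not tested. Median scaling moved the median of all probes in luminal pregnancy from 0.05 to -0.17 and in the interaction from -0.02 to 0.12. It turned the split of called probes in luminal pregnancy from 2024 higher and 2038 lower to 795 and 2327 (cyclic loess 1649 and 2304), in MaSC-enriched pregnancy from 520 and 414 to 250 and 381, in the interaction from 979 and 585 to 808 and 270, and between pregnant populations from 3792 and 4458 to 3603 and 2876 (loess 4280 and 3375). Between virgin populations loess gave 3184 and 2817 in place of 2842 and 3233. Under median scaling Mylk (1.58, limma adjusted p 0.0763) and Tagln (0.73, limma adjusted p 0.163) lost their luminal calls. Bright genes near the top of the scale leave little room for a rise to be seen.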

Other observations

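The virgin MaSC-enriched arrays differed among themselves in genes of smooth muscle identity that are not among the 9. Myocd, the coactivator of SRF, read 9.18, 6.22 and 5.91 in virgin and 5.19, 6.40, 6.19 and 5.0 in pregnant MaSC-enriched arrays. The vasopressin receptor Avpr1a read 11.96, 8.25 and 9.94 and then 6.84, 9.59, 9.42 and 7.09. Desmin, Des, read 10.83, 8.96 and 7.10 and then 6.57, 8.60, 8.10 and 5.91, and the pericyte gene Rgs4 read 11.94, 10.98 and 8.46 and then 8.93, 11.34, 10.50 and 8.18. Virgin replicate 1 was highest for all 4 genes, while pregnant replicate 4 was lowest for Des and Rgs4. Myocd on pregnant replicates 1 and 4 lay below the lowest signal detected on those arrays, 5.61 and 5.78. Its lowest values are thus background.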
